A study of Mus musculus with 39 samples.

Results

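The data describe 9 genes of extracellular matrix turnover in mouse mammary tissue: the matrix metalloproteinases Mmp2, Mmp3, Mmp9, Mmp10, Mmp11, Mmp12, Mmp13 and Mmp14, and the inhibitor Timp1. They were taken by name from the array's annotation, with 1 probe set per gene, the one with the highest mean over 39 arrays, and are 9 of 18194 genes measured. The arrays report total RNA of whole tissue as log2 values. The quadruple group (SB/Tg/K5Cre/Bcat) held 19 breast arrays of 15 animals, and the triple K5Cre group (SB/Tg/k5Cre) held 8 breast arrays of 8 animals. The triple Bcat group (SB/Tg/Bcat) held 3 breast arrays of 2 animals. Animals labelled Bcat +/- gave 2 arrays of masses from 2 animals and 3 arrays of ventral tumours that all came from 1 animal. The titles of all these arrays carry C57, and no other title does. Each comparison of them with normal gland thus also sets C57-titled animals against others. Normal mammary gland came from 4 animals, of which 2 were triple SB/Tg/k5Cre, 1 was quadruple and 1 was triple SB/Tg/Bcat, so the glands carried the alleles too. Sleeping Beauty, named in the title of the series, is a transposon used to find cancer genes by insertion, and K5 is the keratin 5 promoter, which is active in basal epithelium. The labels give no ages and do not call the quadruple and triple breast samples tumours.

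Matrix metalloproteinases are zinc-dependent enzymes, most of them secreted as inactive precursors, that cut collagens and other matrix proteins. Timp1 binds and blocks many of them. In the mammary gland these enzymes are known for remodelling matrix during branching and involution, and stromal cells, leukocytes and epithelial cells can each make some of them.

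Mmp13, Mmp12, Mmp3 and Mmp10 lie in this order on mouse chromosome 9. Their promoters are shown because the 2 members called in triple Bcat breast, Mmp10 and Mmp13, are among these neighbours. Mmp3 and Mmp12 were not called there (limma adjusted p = 0.482 and 0.352). At least 1 entry of each neighbour also holds the letters TGANTCA, the pattern that AP-1 (Fos and Jun) factors bind. Mmp12 has 2 entries, of which the first holds none and is not shown. The first (chr9:7344147-7344396) ends where the annotated gene starts, at 7344397. The second, shown because it holds the pattern, lies inside the gene before another annotated start. Each sequence gives the 250 bases before the annotated start, on the plus strand, from the RefSeq table of build GRCm38.p6, with TGANTCA in capitals. The windows are chr9:7272264-7272513 for Mmp13, chr9:7347124-7347373 for the second entry of Mmp12, chr9:7445572-7445821 for Mmp3 and chr9:7502092-7502341 for Mmp10.
Mmp13: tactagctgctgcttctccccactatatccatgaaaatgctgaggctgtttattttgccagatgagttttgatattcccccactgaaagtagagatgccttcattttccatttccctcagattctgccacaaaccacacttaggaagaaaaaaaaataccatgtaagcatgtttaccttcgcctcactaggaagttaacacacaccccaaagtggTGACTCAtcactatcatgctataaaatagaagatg
Mmp12: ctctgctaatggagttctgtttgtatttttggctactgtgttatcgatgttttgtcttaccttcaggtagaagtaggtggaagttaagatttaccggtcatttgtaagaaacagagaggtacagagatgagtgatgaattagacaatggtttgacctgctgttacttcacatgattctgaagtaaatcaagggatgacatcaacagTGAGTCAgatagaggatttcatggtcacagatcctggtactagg
Mmp3: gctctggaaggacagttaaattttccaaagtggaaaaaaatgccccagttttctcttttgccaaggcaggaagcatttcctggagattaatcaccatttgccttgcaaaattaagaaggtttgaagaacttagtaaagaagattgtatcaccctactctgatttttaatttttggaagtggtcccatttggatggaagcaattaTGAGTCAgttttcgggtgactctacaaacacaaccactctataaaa
Mmp10: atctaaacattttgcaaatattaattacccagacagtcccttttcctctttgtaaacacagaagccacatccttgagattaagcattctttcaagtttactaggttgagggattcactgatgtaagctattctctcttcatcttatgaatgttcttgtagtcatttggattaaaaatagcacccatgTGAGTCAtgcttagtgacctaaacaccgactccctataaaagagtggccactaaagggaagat
The pattern reads the same on both strands. It ended 28 bases before the start in Mmp13, 37 in the second entry of Mmp12, 39 in Mmp3 and 56 in Mmp10. It was present in 4 of the 8 entries of 7 members in the table, and in 6.75% of all 32851 promoters of the same length. Of the other patterns searched on both strands, TATAAA was found in Mmp3, Mmp10 and Mmp13 and in 12.4% of all promoters. AGGAAG, the ETS-type pattern, was found in Mmp3, Mmp13, Mmp14, Timp1 and the first entry of Mmp12, and in 29.5% of all promoters. The matches describe letters only.

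Normal gland differed from the other groups in tissue make-up. The mean of 4 adipocyte markers averaged 7.21 in quadruple (4.90 to 12.7), 7.19 in triple K5Cre (4.47 to 9.40) and 7.26 in triple Bcat breast, 5.94 in masses, 6.21 in ventral tumours and 12.8 in normal gland (12.7 to 13.3). That of 6 skeletal muscle markers averaged 6.39 in quadruple (4.34 to 11.5), 5.72 in triple K5Cre (4.42 to 12.1) and 4.76 in triple Bcat breast, 4.93 in masses, 7.45 in ventral tumours and 12.1 in normal gland (11.2 to 12.8). Single breast arrays reached the gland range, 1 quadruple array (Q260) for adipocyte markers, and 2 quadruple arrays and triple K5Cre 7 for muscle markers. Epithelial markers (6 genes) were present throughout, with group averages of the list mean between 11.4 and 12.3. Low Xist set apart 3 arrays, with 5.72 on quadruple 5, 7.0 on triple K5Cre 2 and 5.64 on normal gland 3, against 10.77 or more on the others; the last 2 are of 1 animal, T627. In whole tissue, fewer cells of a type and less RNA per cell cannot be told apart. All differences below are fitted log2 differences from 1 limma model of all arrays with the animal as a random block, and called genes are those whose p, adjusted by Benjamini and Hochberg over all 18194 genes, was under 0.05.

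**Figure D1:**
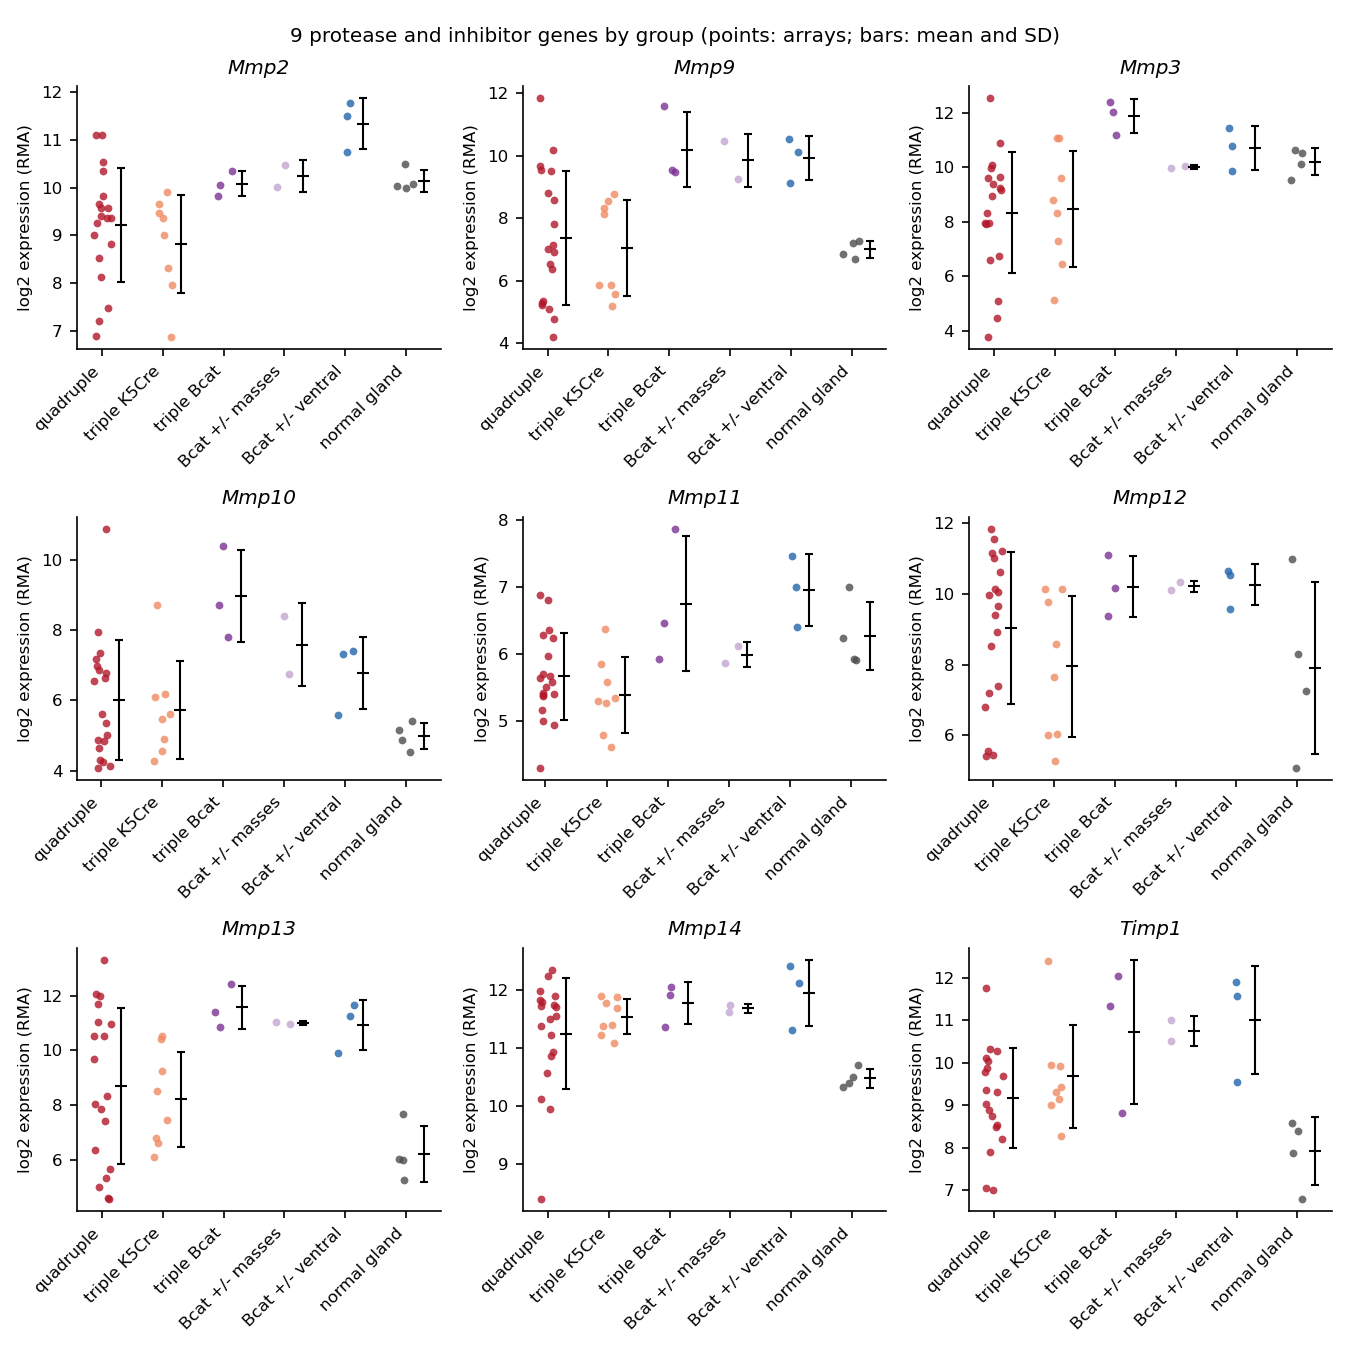
Log2 expression of each member (vertical axes) on every array, by group (horizontal axes); points are arrays and bars give the mean and SD over arrays. Mmp13 spans 4.59 to 13.30 in quadruple breast, while all triple Bcat, mass and ventral tumour arrays lie at 9.90 or above and the normal glands at 7.68 or below.

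Mmp13, a collagenase that cuts fibrillar collagen, ran in quadruple breast from 4.59 to 13.30 with a median of 8.33 and in triple K5Cre breast from 6.13 to 10.54 with a median of 8.0. The triple Bcat arrays read 12.43, 10.87 and 11.41, the masses 10.96 and 11.04, and the ventral tumours 9.90, 11.66 and 11.24. Normal gland read 7.68, 6.03, 5.27 and 5.99. All 8 arrays of triple Bcat breast, masses and ventral tumours, from 2, 2 and 1 animals, thus lay above every normal gland. Shares of all genes that did so are given below by group. The quadruple and triple K5Cre arrays overlapped normal gland, 12 of 19 and 4 of 8 lying above its highest value. Mmp13 rose in triple Bcat breast by 5.65 on the log2 scale (SE 1.81, 50.3-fold, limma adjusted p = 0.0496), a call just inside the threshold. The differences from normal gland were 5.0 (SE 1.94, adjusted p = 0.115) in masses, 4.93 (SE 2.01, adjusted p = 0.164) in ventral tumours, 2.55 (SE 1.24, adjusted p = 0.171) in quadruple and 2.29 (SE 1.28, adjusted p = 0.23) in triple K5Cre breast, none of them called. Without triple Bcat 1 the triple Bcat difference was 5.14 with an adjusted p of 0.298, and it also missed the threshold without triple Bcat 2 or 3, or normal gland 2, 3 or 4 (adjusted p between 0.0663 and 0.117). It missed the threshold too with animal means (adjusted p = 0.0817), probe-set means (adjusted p = 0.0522), no trend (adjusted p = 0.0504) and without the 3 arrays low in Xist (adjusted p = 0.117).

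The stromelysins Mmp3 and Mmp10 cleave a broad range of matrix proteins and can activate other metalloproteinase precursors. Mmp10 ran from 4.08 to 10.87 (median 5.62) in quadruple breast and from 4.27 to 8.72 (median 5.55) in triple K5Cre breast. Its values were 10.38, 7.81 and 8.70 in triple Bcat breast, 6.75 and 8.41 in masses, 5.60, 7.40 and 7.33 in ventral tumours, and 4.87, 5.41, 5.14 and 4.53 in normal gland. The 8 triple Bcat, mass and ventral tumour arrays again stood above all 4 glands. Mmp10 rose in triple Bcat breast by 4.15 (SE 1.18, 17.7-fold, limma adjusted p = 0.0261). That call was lost without triple Bcat 1 (3.30, adjusted p = 0.3), without normal gland 3 (4.23, adjusted p = 0.0527), without normal gland 4 (3.95, adjusted p = 0.0638) and without the 3 arrays low in Xist (4.23, adjusted p = 0.0579). In the other groups the difference from normal gland was 2.63 (SE 1.27) for masses, 1.82 (SE 1.32) for ventral tumours, 1.02 (SE 0.81) for quadruple and 0.79 (SE 0.84) for triple K5Cre breast, with adjusted p between 0.226 and 0.582.

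Mmp3 ran from 3.79 to 12.54 (median 8.94) in quadruple breast and from 5.13 to 11.07 (median 8.56) in triple K5Cre breast. It read 12.02, 11.17 and 12.39 in triple Bcat breast, 10.05 and 9.96 in masses, 9.85, 11.45 and 10.77 in ventral tumours, and 10.51, 10.10, 9.53 and 10.63 in normal gland. The triple Bcat arrays lay above all glands, and the other groups overlapped them. In quadruple breast 13 of 19 arrays lay below the lowest gland and 2 above the highest. No difference from normal gland was called: it was -1.71 (SE 1.02, adjusted p = 0.29) in quadruple, -1.44 (SE 1.06, adjusted p = 0.389) in triple K5Cre and 1.94 (SE 1.5, adjusted p = 0.482) in triple Bcat breast. In masses it was 0.07, with a sign that turned under cyclic loess scaling (-0.03).

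Mmp11, stromelysin-3, is a stromal enzyme with weak activity on classical matrix substrates. Its span was narrow, from 4.31 to 6.89 (median 5.59) in quadruple and from 4.61 to 6.38 (median 5.33) in triple K5Cre breast. It read 7.87, 5.93 and 6.48 in triple Bcat breast, 6.13 and 5.87 in masses, 6.41, 7.47 and 7.0 in ventral tumours, and 5.93, 7.0, 5.92 and 6.24 in normal gland. Every group overlapped normal gland, with 13 of 19 quadruple and 7 of 8 triple K5Cre arrays below its lowest value. The largest difference was -0.87 (SE 0.35, adjusted p = 0.0821) in triple K5Cre breast, which was not called. Without array 7 of that group (T852) it was -0.98 and called (adjusted p = 0.0418).

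The gelatinases Mmp2 and Mmp9 degrade denatured collagen and basement membrane collagen. Mmp2, typically a product of fibroblasts, ran from 6.90 to 11.11 (median 9.36) in quadruple and from 6.88 to 9.91 (median 9.19) in triple K5Cre breast. It read 10.07, 9.82 and 10.35 in triple Bcat breast, 10.48 and 10.02 in masses, 10.74, 11.78 and 11.51 in ventral tumours, and 10.08, 10.03, 9.99 and 10.49 in normal gland. All 8 triple K5Cre arrays lay below the glands and all 3 ventral tumour arrays above them. The differences, -1.30 (SE 0.55, adjusted p = 0.102) in triple K5Cre breast, -0.96 (SE 0.53, adjusted p = 0.246) in quadruple breast and 1.22 (SE 0.87, adjusted p = 0.497) in ventral tumours, were not called. Fibroblast markers moved with Mmp2: 4 of 10 fell in triple K5Cre and 3 of 10 in quadruple breast. All genes called in these comparisons, either way, were 17.2% and 15.4%. The list mean ran from 7.99 to 11 in triple K5Cre and from 7.0 to 11.2 in quadruple breast. In ventral tumours it ran from 10.7 to 11.7, and in normal gland from 10.4 to 10.9. The part of the fibroblast markers in the Mmp2 values was not tested.

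Mmp9, which neutrophils store in granules and other cells secrete, ran from 4.21 to 11.85 (median 7.03) in quadruple and from 5.18 to 8.77 (median 7.0) in triple K5Cre breast. It read 11.58, 9.53 and 9.46 in triple Bcat breast, 9.26 and 10.45 in masses, 9.14, 10.11 and 10.52 in ventral tumours, and 7.21, 6.85, 6.70 and 7.26 in normal gland. The glands spanned little, and the 8 triple Bcat, mass and ventral tumour arrays lay above them, while quadruple breast lay on both sides, 8 arrays above and 8 below. In triple K5Cre breast 4 arrays read between 5.18 and 5.86 and the other 4 between 8.13 and 8.77. The differences from normal gland were 3.56 (SE 1.38, adjusted p = 0.114) in triple Bcat breast, 3.09 (SE 1.49, adjusted p = 0.223) in masses, 3.16 (SE 1.54, adjusted p = 0.261) in ventral tumours and 0.51 (SE 0.95, adjusted p = 0.79) in quadruple breast. For triple K5Cre breast the difference was 0.29 (SE 0.98, adjusted p = 0.884). None was called.

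Mmp12, the elastase typical of macrophages, ran from 5.41 to 11.84 (median 9.65) in quadruple and from 5.28 to 10.14 (median 8.12) in triple K5Cre breast. The triple Bcat arrays read 9.37, 10.15 and 11.09, the masses 10.32 and 10.10, and the ventral tumours 9.58, 10.63 and 10.54. Normal gland read 10.97, 8.29, 5.08 and 7.26, the widest span of the 9 members there. Every group overlapped the glands, and differences between 0.53 and 2.67 had adjusted p between 0.352 and 0.805. The difference in triple K5Cre breast turned negative without normal gland 3 (-0.50).

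Mmp14, a membrane-bound enzyme that activates the Mmp2 precursor at the cell surface, lay above every normal gland on 31 of 35 breast, mass and tumour arrays. It ran from 8.40 to 12.34 (median 11.54) in quadruple and from 11.09 to 11.89 (median 11.54) in triple K5Cre breast. It read 11.36, 11.90 and 12.05 in triple Bcat breast, 11.73 and 11.62 in masses, 11.31, 12.12 and 12.41 in ventral tumours, and 10.70, 10.33, 10.39 and 10.50 in normal gland. Of the quadruple arrays 15 lay above every gland and 3 below all of them (Q2164 at 8.40, Q629 at 9.95 and Q648-3 at 10.11). In every other breast, mass and tumour group all arrays lay above the glands. The differences were 1.08 (SE 0.42, 2.12-fold, adjusted p = 0.0688) in triple K5Cre breast, 0.76 (SE 0.40, adjusted p = 0.218) in quadruple breast, 1.27 (SE 0.59, adjusted p = 0.195) in triple Bcat breast, 1.22 (SE 0.64, adjusted p = 0.268) in masses and 1.49 (SE 0.66, adjusted p = 0.206) in ventral tumours, none of them called.

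Timp1, the secreted inhibitor, was higher than every normal gland on 28 of the 35 arrays and below all of them on none. It ran from 7.0 to 11.77 (median 9.32) in quadruple and from 8.27 to 12.40 (median 9.37) in triple K5Cre breast. It read 8.82, 11.33 and 12.04 in triple Bcat breast, 11 and 10.50 in masses, 9.55, 11.57 and 11.89 in ventral tumours, and 8.39, 8.59, 6.80 and 7.89 in normal gland. The triple Bcat, mass and ventral tumour arrays did not overlap the glands. Timp1 rose in triple K5Cre breast by 1.88 (SE 0.66, 3.69-fold, limma adjusted p = 0.043). The call was lost without normal gland 1 (adjusted p = 0.0546), 3 (1.46, adjusted p = 0.236) or 4 (adjusted p = 0.107). It was also lost without triple K5Cre 2 (adjusted p = 0.0869), 3 (adjusted p = 0.0772) or 7 (1.57, adjusted p = 0.0713), and without the 3 arrays low in Xist (1.43, adjusted p = 0.263). Over all arrays it was lost with animal means (adjusted p = 0.102), without the block (adjusted p = 0.0914), under cyclic loess (adjusted p = 0.0681) and with the compared groups alone (adjusted p = 0.0907). The differences were 2.69 (SE 0.93, adjusted p = 0.0709) in triple Bcat breast, 2.90 (SE 1.0, adjusted p = 0.0707) in masses, 3.15 (SE 1.03, adjusted p = 0.0762) in ventral tumours and 1.26 (SE 0.64, adjusted p = 0.191) in quadruple breast, and were not called.

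**Figure D2:**
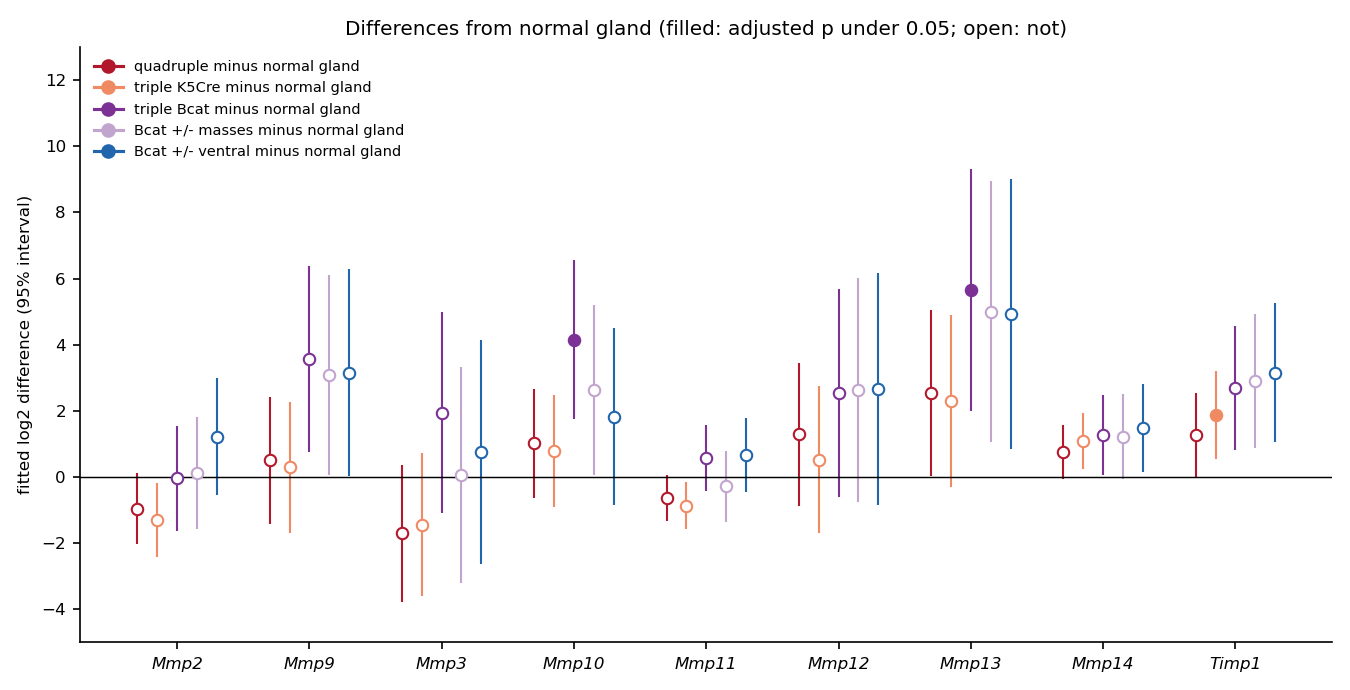
Fitted log2 difference of each member from normal gland (vertical axis) for 5 groups, with 95% intervals; filled points were called and open points were not. Filled points are Mmp10 and Mmp13 in triple Bcat breast and Timp1 in triple K5Cre breast.

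Counted by comparison, 2 of 9 members rose in triple Bcat breast, where 7.12% of all genes were called and 1.74% were called higher; 5 members and 22.1% of all genes had an unadjusted p under 0.05. In triple K5Cre breast 1 of 9 rose, against 17.2% of all genes called and 7.44% called higher; 4 members and 29.5% of all genes passed at the unadjusted level. By limma none of the 9 was called in quadruple breast, where 15.4% of all genes were called and 1 member had an unadjusted p under 0.05 (27.8% of all genes). None was called in masses (7.28% of all genes; 4 members and 21.2% of all genes at the unadjusted level) or in ventral tumours (4.03%; 4 members and 18.7% at the unadjusted level). These comparisons share the same 4 normal glands. Groups did not overlap for 6 members higher in triple Bcat breast (12.4% of all genes), 5 higher in masses (22.2%) and 6 higher in ventral tumours (16.8%). In triple K5Cre breast 1 was higher (4.82%) and 1 lower (5.66%), and in quadruple breast there was none (0.654% of all genes higher, 1.85% lower). The median member difference was 0.76 in quadruple, 0.53 in triple K5Cre and 2.53 in triple Bcat breast, 2.63 in masses and 1.82 in ventral tumours, where the medians over all genes lay between -0.01 and 0.02.

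Quadruple breast differed from triple K5Cre breast by the added Bcat allele, and from triple Bcat breast by the added K5Cre. Against triple K5Cre breast, differences ran from -0.62 (SE 0.50) for Timp1 to 0.76 (SE 0.83) for Mmp12. With limma 0 of 9 members were called or had an unadjusted p under 0.05, and 0.0% of all genes were called, with 811 (4.46%) at the unadjusted level. The 95% intervals were wide, from -1.70 to 2.22 for Mmp13 and from -0.96 to 0.32 for Mmp14. Against triple Bcat breast all 9 fitted differences were negative, the largest being -3.65 (SE 1.27) for Mmp3, -3.13 (SE 1.0) for Mmp10, -3.10 (SE 1.53) for Mmp13 and -3.05 (SE 1.17) for Mmp9. None was called (adjusted p between 0.546 and 0.786), 4 had an unadjusted p under 0.05 (8.39% of all genes), and 0.033% of all genes were called.

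**Figure D3:**
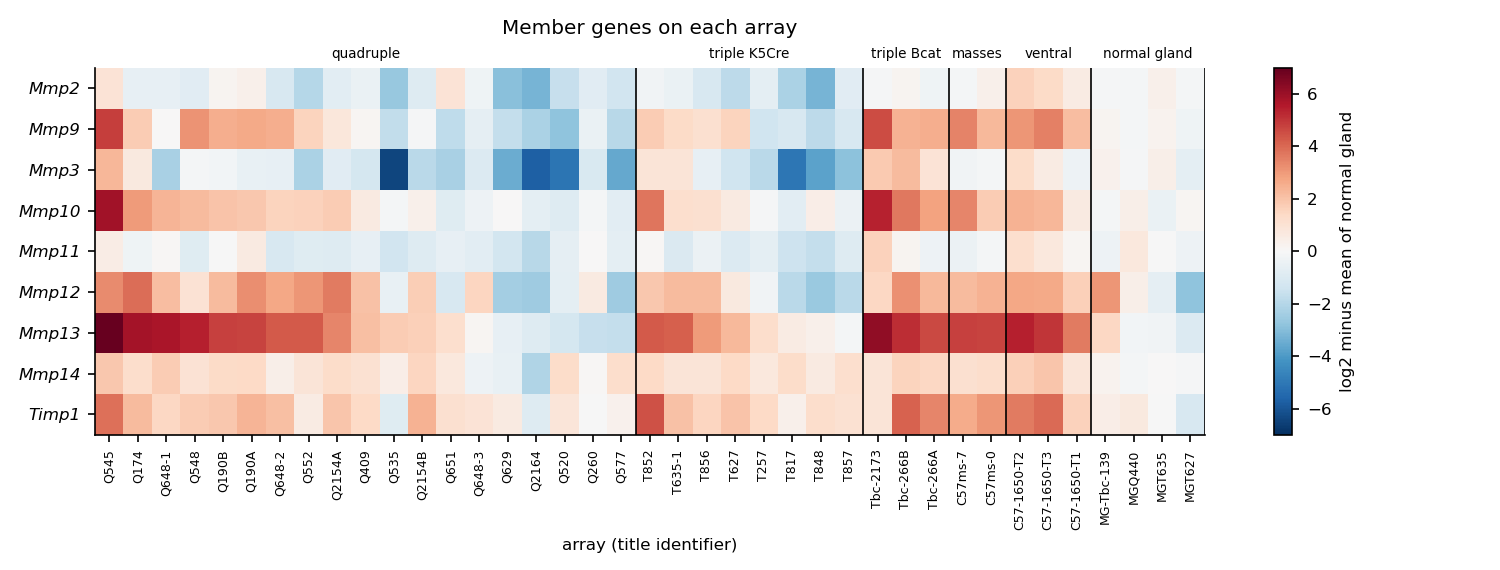
Each member's log2 value minus its normal gland mean (colour) on every array (columns, grouped, ordered by Mmp13 within a group). Q545 is high for most members and Q2164 low, and quadruple arrays cover the whole range between.

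Quadruple animals differed widely from each other. The SD over 15 animal means was 2.92 for Mmp13, 2.43 for Mmp3, 2.26 for Mmp9, 2.26 for Mmp12 and 1.83 for Mmp10, against a median of 0.30 over all genes. Mmp2 (1.28), Timp1 (1.25), Mmp14 (0.97) and Mmp11 (0.63) varied less. Over the triple K5Cre animals Mmp3 had an SD of 2.12 and Mmp14 of 0.31, where the median gene had 0.29. Array Q545 exceeded the highest gland in 8 of 9 members, with 13.30 for Mmp13, 12.54 for Mmp3 and 10.87 for Mmp10. Q2164 exceeded it in none and lay below the lowest gland in 6, with 5.34 for Mmp13 and 4.47 for Mmp3. These 2 arrays were picked as extremes of the group. The shares of all genes above or below the glands on single arrays were not counted, so the member counts describe these arrays only.

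**Figure D4:**
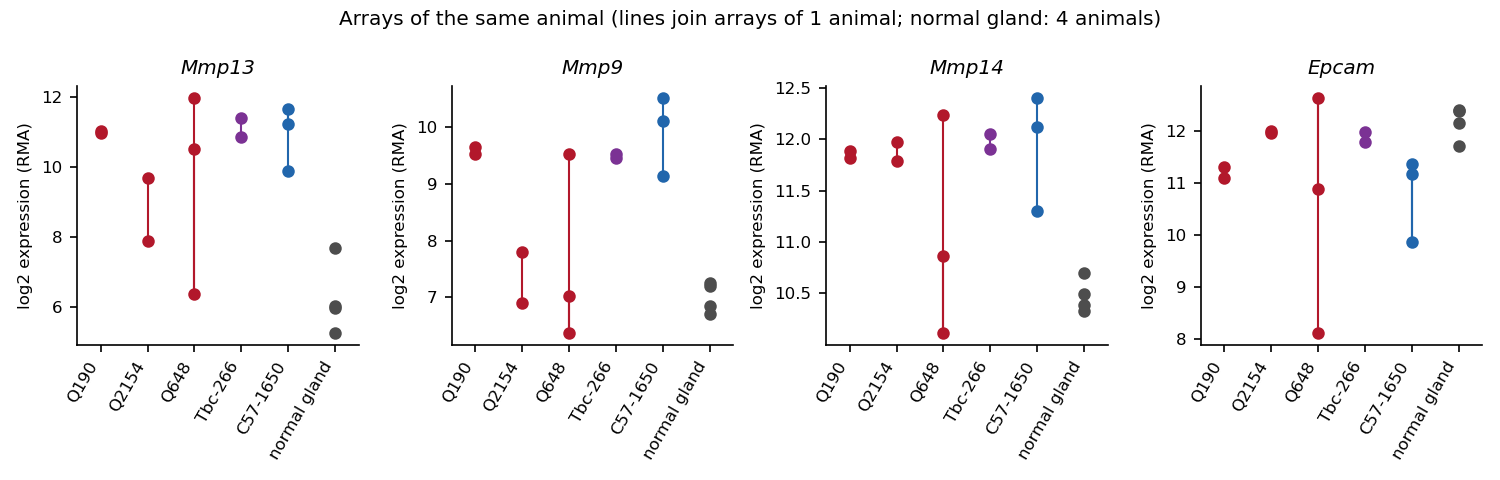
Log2 expression (vertical axes) of Mmp13, Mmp9, Mmp14 and the epithelial gene Epcam in animals with several arrays, beside the 4 normal glands; lines join arrays of an animal. The Q648 arrays span 6.38 to 11.98 for Mmp13 and 8.13 to 12.63 for Epcam.

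Arrays of a single animal also differed. In Q648 the 3 arrays read 11.98, 6.38 and 10.52 for Mmp13, a 48.3-fold range, and 7.03, 6.37 and 9.53 for Mmp9. Epcam, an epithelial adhesion gene, read 8.13, 12.63 and 10.88 on the same arrays. The adipocyte mean read 5.23, 11.38 and 7.49 on them and the skeletal muscle mean 6.11, 11.44 and 4.47, against averages of 12.8 and 12.1 in normal gland. The array lowest in Mmp13 was thus highest in Epcam, adipocyte and muscle markers, and their part in the Mmp13 values was not tested. The array pair of Q190 differed by 0.08 for Mmp13 and by at most 1.00 for any member (Mmp12). In the animals T627 and T635, which gave both triple K5Cre breast and normal gland, 6 members were higher in breast in both animals and 2 lower. Mmp3 went opposite ways. The share of all genes that agreed in direction between these 2 animals was not counted, so the member counts are descriptive. Mmp13 read 8.53 in T627 breast, against 5.27 in its gland, and 10.43 in T635 breast, against 5.99 in its gland. Timp1 read 9.93 in T627 breast, against 6.80 in its gland, and 9.95 in T635 breast, against 7.89 in its gland. Mmp2 read 8.32 in T627 breast, against 9.99 in its gland, and 9.67 in T635 breast, against 10.49 in its gland. A paired limma fit of these 2 animals, with 1 residual degree of freedom, called 0 members (Timp1 2.59, adjusted p = 0.153).

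**Figure D5:**
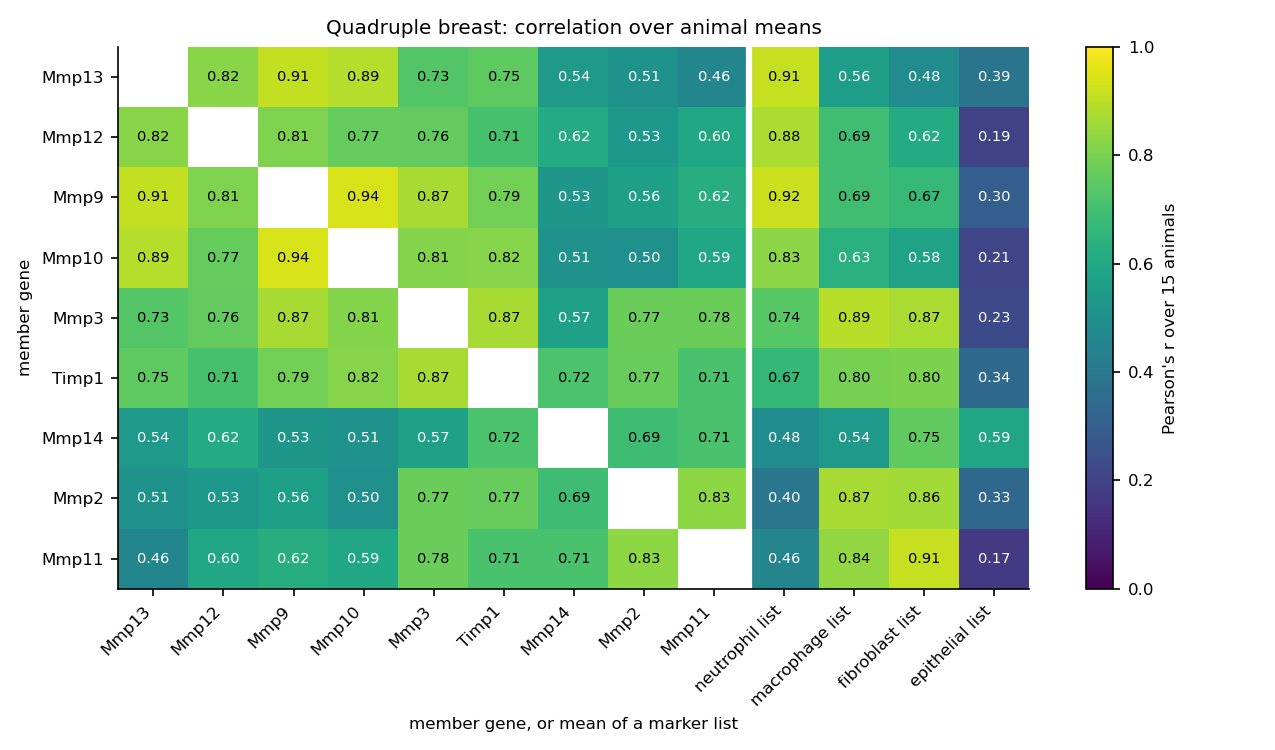
Pearson's r over 15 quadruple animals (colour and printed value) between members, left, and between members and the means of 4 marker lists, right. All 36 member pairs are positive, from 0.46 to 0.94.

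Across the 15 quadruple animals all 36 member pairs correlated positively, with a median r of 0.73, and 32 passed at a permutation p adjusted over the 36 pairs. By Spearman's rho 20 passed. Without the 2 animals farthest from the median of a pair's first-named gene, which can differ between pairs, 22 passed. Mmp9 and Mmp10 were closest (r = 0.939, rho = 0.964, permutation p = 1e-05 for both, the smallest that 100000 resamples can give, adjusted p = 0.00024), with r = 0.937 without the 2 farthest animals. Mmp9 and Mmp13 had r = 0.909 (rho = 0.907, permutation p = 2e-05 for both, adjusted p = 0.00024), and 0.866 without the 2. Mmp2 and Mmp11 had r = 0.831 (rho = 0.85, permutation p = 0.00013 and 0.00014, adjusted p = 0.00067), and 0.73 without the 2. The weakest pair was Mmp11 with Mmp13 (r = 0.458). A member's median r with the others was reached by 1.18% (Mmp10) to 6.38% (Mmp14) of all genes. The 4 chromosome 9 neighbours had a median r of 0.79 over their 6 pairs (0.732 to 0.889). The trio of Mmp2, Mmp11 and Mmp14 had 0.713 (0.69 to 0.831), and the 27 other pairs 0.71 (0.458 to 0.939). These ranges overlapped, and differences between the sets were not tested. The 2 closest pairs, Mmp9 with Mmp10 and Mmp9 with Mmp13, join a neighbour to a gene on chromosome 2. In triple K5Cre breast (8 animals) all 36 pairs were positive and 14 passed by an exact permutation test. Without the 2 farthest animals none passed. So few animals were then left that their pairings could hardly give a p small enough to pass after adjustment. That count therefore does not tell whether the pairs rested on those 2 animals.

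Means of 5 marker lists were set against the members over the same 15 animals, and 30 of 45 list and member pairs passed at a permutation p adjusted over the 45. Of the 9 members, 6 passed with the neutrophil mean, 8 with the fibroblast, 8 with the macrophage and 1 with the epithelial mean. These are 23 of 36 pairs. The 9 pairs of the squamous mean stayed in the 45, and 7 of them are in the 30. That mean fell into 2 sets of animals (below), so its passes are not read as correlations. The neutrophil mean, of 6 genes, correlated with Mmp9 at r = 0.918 (rho = 0.911, 0.916 without the 2 farthest animals, permutation adjusted p = 0.00011) and with Mmp13 at r = 0.914 (rho = 0.904, 0.933 without the 2, permutation adjusted p = 0.00011). With Mmp2 it correlated at r = 0.396 (rho = 0.361, permutation adjusted p = 0.18). The fibroblast mean, of 10 genes, correlated with Mmp11 at r = 0.913 (rho = 0.8, 0.857 without the 2, permutation adjusted p = 0.00011) and with Mmp2 at r = 0.863 (rho = 0.771, 0.786 without the 2, permutation adjusted p = 0.00011). With Mmp13 it correlated at r = 0.482 (rho = 0.45, permutation adjusted p = 0.091). The macrophage mean, of 10 genes, correlated with Mmp3 at r = 0.891 (rho = 0.861, 0.897 without the 2, permutation adjusted p = 0.00011) and with Mmp12 at r = 0.695 (rho = 0.704, permutation adjusted p = 0.0081). The epithelial mean passed with Mmp14 alone (r = 0.59, permutation adjusted p = 0.026), though not by rho (0.418, permutation adjusted p = 0.16). Its r with the other 8 lay between 0.168 and 0.385. In triple K5Cre breast its pair with Mmp14 had the opposite sign (r = -0.711, rho = -0.786, exact permutation adjusted p for r = 0.13). Differences between these correlations were not tested. In triple K5Cre breast 2 of 45 pairs passed. Without the 2 farthest animals none did, where too few animals were left for a pair to pass readily.

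The mean of the squamous markers, 6 genes of keratinizing epithelium, fell into 2 sets of quadruple animals with a gap of 2.54, so no r over all 15 is given. It ran from 8.98 to 12.7 in 9 animals and from 4.44 to 6.44 in the other 6. The animal at 8.98, Q648, averaged 3 arrays that read 8.40 (Q648-1), 5.25 (Q648-3) and 13.29 (Q648-2). Array Q648-3, with 6.38 for Mmp13, thus lay within the ranges of the 6 for the squamous mean and for Mmp13. The gap, and the separation of Mmp13 given next, therefore hold for animal means and not for single arrays. Of the 9 members only Mmp13 did not overlap between the sets, with 8.03 to 13.30 in the 9 animals and 4.59 to 7.44 in the 6; 1.0% of all genes were likewise higher in all of the 9 than in any of the 6. Mmp10 ran from 4.88 to 10.87 in the 9 and from 4.08 to 5.0 in the 6, and Mmp3 from 3.79 to 12.54 in the 9 and from 4.47 to 9.15 in the 6. These sets were read from the data and are not groups of the study, so no test between them is given. Within the sets 1 of 18 correlations passed an exact permutation test with adjustment over the 18, that of Mmp14 in the 9 animals (r = 0.900, rho = 0.867, adjusted p = 0.0167). For Mmp13 r was 0.444 (rho = 0.367, exact permutation p = 0.229) in the 9 animals and -0.609 (rho = -0.6, exact permutation p = 0.185) in the 6. The part of the squamous markers in the members' values was not tested.

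The same lists differed between groups. The neutrophil mean ran from 6.51 to 10.7 in quadruple, 6.37 to 10.1 in triple K5Cre and 10.5 to 10.8 in triple Bcat breast, 10 to 10.8 in masses, 9.94 to 10.5 in ventral tumours and 7.36 to 8.52 in normal gland. Of its 6 measured genes, 3 rose in triple Bcat breast (Cxcr2, Csf3r and Camp), 1 in masses and 2 in ventral tumours. All genes called in these comparisons, either way, were 7.12%, 7.28% and 4.03%. The squamous mean ran from 8.89 to 13 in triple Bcat breast, 10.6 to 12.6 in masses, 12.1 to 12.8 in ventral tumours and 4.52 to 8.25 in normal gland, with none of its 6 genes called. None of the 10 macrophage genes was called in any comparison, and their mean ran from 9.05 to 11.3 in triple Bcat breast and from 8.98 to 10.2 in normal gland. The part of these cells in the Mmp9, Mmp10 and Mmp13 values was not tested.

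Over the 28 animals with breast, mass or tumour arrays, the genes most like each member were found by Pearson's r, which also carries the group differences. Mmp13 was most like Acod1 (0.927), Cxcl2 (0.914) and Il1b (0.91), which are inflammatory genes of myeloid cells. Mmp9 was most like Ifitm1 (0.955), Il1b (0.945) and the formyl peptide receptor Fpr2 (0.93). Mmp10 was most like the BMP antagonist Grem1 (0.936), Gpr35 (0.914) and the urokinase receptor Plaur (0.899), and Mmp12 like F7 (0.926), Clec4d (0.912) and Gpnmb (0.908). Mmp3 was most like the chemokine receptor Ccr1 (0.916), Fcgr2b (0.916) and Sirpb1a (0.905), and Timp1 like Ms4a6d (0.907), Msr1 (0.893) and Tlr13 (0.878). For Mmp2 they were Fstl1 (0.915), the proteoglycan Bgn (0.914) and Mxra7 (0.898), for Mmp11 C1qtnf2 (0.869), Adamts12 (0.862) and Col6a1 (0.855), and for Mmp14 Rbms1 (0.86), S100a6 (0.853) and Col5a2 (0.851).

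Related genes gave the following counts. Beside them, genes called either way were 15.4% of all in quadruple, 17.2% in triple K5Cre and 7.12% in triple Bcat breast. In masses they were 7.28% and in ventral tumours 4.03%. Of 10 measured other metalloproteinases, Mmp8, the neutrophil collagenase, rose in triple Bcat breast (3.82, SE 0.79, limma adjusted p = 0.00241), in masses (4.12, adjusted p = 0.00265) and in ventral tumours (4.53, adjusted p = 0.00253), and Mmp19 fell in triple K5Cre breast (-1.78, adjusted p = 0.028). Of the 4 other inhibitors, Timp4 fell in all 5 comparisons with normal gland, by 3.99 in quadruple and 4.19 in triple K5Cre breast. Timp2 fell in quadruple (-1.40, adjusted p = 0.00296) and triple K5Cre breast (-1.58, adjusted p = 0.00113). Adipocyte and muscle markers were lower in the same comparisons (the values above), and their part was not tested. Of 16 measured Adam and Adamts genes, 3 rose and 1 fell in quadruple, 3 rose and 1 fell in triple K5Cre and 2 rose in triple Bcat breast, 2 rose and 1 fell in masses and 2 rose in ventral tumours. Adam17, a sheddase that releases growth factors and Tnf, rose in all 5 comparisons, by 0.69 in quadruple, 0.91 in triple K5Cre and 1.02 in triple Bcat breast, 1.03 in masses and 0.98 in ventral tumours. Adamts4, an aggrecan-cutting enzyme, rose in quadruple (1.87) and triple Bcat breast (2.79), in masses (4.19) and in ventral tumours (4.10). Adam33 fell in quadruple (-0.67, adjusted p = 0.000704) and triple K5Cre breast (-0.73, adjusted p = 0.000346) and in masses (-0.72, adjusted p = 0.0375). Of 9 measured matrix substrate genes 1, the proteoglycan Vcan, rose in triple K5Cre breast (1.97, adjusted p = 0.0237) and none was called in the other comparisons. Of 8 AP-1 genes, Junb rose in quadruple (1.01, limma adjusted p = 0.0206), triple K5Cre (1.19, adjusted p = 0.00771) and triple Bcat breast (1.71, adjusted p = 0.0148). Fosl2 rose in triple Bcat breast (1.70) and Fosl1 in masses (2.43), and no other AP-1 gene was called. The median difference of the 8 was 0.183 in quadruple, 0.261 in triple K5Cre and 0.535 in triple Bcat breast. In masses it was 0.175 and in ventral tumours -0.033. Of 8 cytokines known to induce metalloproteinases, 4 rose in triple Bcat breast, among them Il1b (4.67, SE 1.14, adjusted p = 0.00885), Osm (1.62) and Il1a (4.35), and 1 in masses (Il1a, 4.0). None of 7 cathepsins and none of 6 measured plasminogen system genes was called in any of these comparisons.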

How the data were processed

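Total RNA was hybridised to Affymetrix 3' IVT arrays, per the labels' protocols. The deposited log2 values of 45101 probe sets were made with RMA, per the submitters' processing notes, which name no version. RMA subtracts background, equalises the distribution between arrays and summarises probes, so shifts of all genes are removed. Array medians lay between 5.10 and 5.27. Without detection calls, low values could not be set apart from background. Precision is limited by the few arrays per group and by the spread of other groups, since the fit shares 1 spread per gene. For Mmp13 the SD over arrays was 2.85 in quadruple breast, 1.02 in normal gland and 0.06 in masses, where the SE was 1.94. With the compared groups alone, limma called 5 members in triple Bcat breast, 5 in masses and 6 in ventral tumours (1 animal). All genes called there were 2033, 3682 and 4398.

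Genes were named from the platform annotation, with symbols updated through a RefSeq table (GRCm38.p6); 34958 probe sets carried 1 gene, 932 several and 9211 none. Other probe sets of Mmp2, Mmp9 and Mmp14 correlated with the ones used at r between 0.944 and 0.998 over 39 arrays. Animals were read from the sample titles. Limma 3.58.1 in R 4.3.3 fitted a mean per group over all arrays, with the animal as a random block (correlation 0.329) and an intensity trend; a fitted difference therefore need not equal the difference of group means. Fits that left out an array reused this correlation. Correlations used 100000 permutations, or all pairings for 8 or 9 animals and fewer. The fit was tested on simulated data. Where nothing says that arrays came from separate animals, p-values measure only the spread between these samples.

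The members and lists were chosen with earlier results of these data known. All 9 members are given in every comparison. The 3 most correlated genes per member are named, skipping clone and Riken names, as are up to 3 genes per related list and comparison with the smallest adjusted p. The split of the squamous means was made after seeing the data. Alternatives tried were no block, animal means, a filter on low values, cyclic loess, array weights, probe-set means, no trend, the compared groups alone, a paired fit and leaving out arrays.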

Additional observations from a re-analysis of the deposited data

Results flagged for a closer look

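Array 7 of triple K5Cre breast (T852) stood apart from the other 7 arrays of its group for 2 members. Mmp10 read 8.72 on it, with the next array at 6.19, and Timp1 read 12.4, with the next at 9.95. Its skeletal muscle mean was 12.1, against 4.42 to 5.35 on the other 7, and it was also highest of its group in the macrophage (10.89) and fibroblast (11.04) means. Their part in the values was not tested. The rule was applied to 18 sets of values, 9 members in each of 2 groups, and chance flags about 1 set in 20.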

How the results depend on the processing

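Array weights raised the members called to 4 in quadruple, 4 in triple K5Cre and 6 in triple Bcat breast, 5 in masses, 8 in ventral tumours and 4 in quadruple against triple Bcat breast, with 6749, 6283, 6581, 4226, 5717 and 2557 of all genes called, against 2794, 3134, 1296, 1324, 734 and 6 by the fit reported. With the compared groups alone, 5 were called in triple Bcat breast, 5 in masses and 6 in ventral tumours (2033, 3682 and 4398 of all genes). The call of Timp1 in triple K5Cre breast was lost without the block, with animal means and under cyclic loess (0 members each), and with a paired replicate block of the 2 animals that gave both tissues (0 members and 0 genes, 1 residual degree of freedom). With the compared groups alone it was replaced by Mmp14. In triple Bcat breast 1 member (Mmp10) stayed called with animal means, probe-set means or no trend. In ventral tumours 1 (Timp1) was called without the block, with 2009 of all genes, and animal means gave 93. In quadruple against triple Bcat breast, 14 genes were called without the block and 0 with the filter on low values.

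Single arrays were left out of the groups of 4 or fewer and, a choice made after seeing the data, of triple K5Cre breast; none of the 19 quadruple arrays was left out in turn. This gave 0 to 1 called member in triple K5Cre breast (Timp1, or Mmp11 without triple K5Cre 7), 0 to 2 in triple Bcat breast, 0 to 1 in ventral tumours (Timp1, adjusted p = 0.0406, without ventral tumour 1) and 0 in the other comparisons. All genes called fell to 328 without triple Bcat 1, to 177 and 353 without either mass, and to 291 in ventral tumours without normal gland 3. When the 3 Xist-low arrays were left out, a choice made after seeing the data, 0 members were called in triple K5Cre and 0 in triple Bcat breast, and 1752, 1844, 768, 867 and 342 of all genes were called in the comparisons with normal gland. Leaving out the quadruple array lowest in Epcam, also chosen after seeing the data, left 0 members called.

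Signs turned for differences that were not called. Among them were Mmp11 in triple Bcat breast (0.58, SE 0.50) and Mmp12 in triple K5Cre breast (0.53, SE 1.10). Mmp9 in triple K5Cre breast was -0.035 with the compared groups alone and -0.111 without the Xist-low arrays, and ran from -0.057 (without triple K5Cre 2) to 0.511 when arrays were left out. Mmp12 there was -0.053 and -0.563, and ran from -0.495 (without normal gland 3) to 1.498 (without normal gland 1) when arrays were left out. Mmp2 in triple Bcat breast was 0.006 with cyclic loess and 0.002 with probe-set means, and ran from -0.177 to 0.085 when arrays were left out. Mmp11 there was -0.219 with array weights and ran from -0.084 to 0.889. In masses Mmp2 ran from -0.105 to 0.358. Mmp3 in masses was -0.187 without the block, with animal means and with the groups alone, -0.032 with cyclic loess, -0.059 with array weights and -0.105 without the Xist-low arrays, and ran from -0.111 to 0.25. In quadruple against triple K5Cre breast, leaving out triple K5Cre arrays gave -0.745 to 0.091 for Mmp3, -0.044 to 0.46 for Mmp9 and -0.041 to 0.592 for Mmp13. The causes were not tested. Of 36 member pairs, 36 passed over 19 arrays and 22 without the 2 farthest animals, against 32 over 15 animals.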
